A study of Mus musculus with 6 samples.

Results

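Dendritic cells are rare leukocytes that take up antigen and present it to T cells. This section describes 10 genes that mark or build their subsets, measured in 6 mouse liver tumour libraries. The genes were chosen by symbol: Xcr1, Clec9a, Batf3, Irf8, Wdfy4, Cd209a, Zbtb46, Itgax, Fscn1 and Siglech. All 10 were found among the 55536 genes of the deposited count table, each under 1 Ensembl identifier, and all 10 had enough reads to be tested. The tumours grew from HCA-1, a mouse hepatocellular carcinoma line, of which 1000000 cells were placed under the liver capsule of male C3H mice aged 6 to 8 weeks. The TSDP group (replicates 1, 2 and 5) received nanoparticles that held the nitric oxide donor DNIC and the kinase inhibitor sorafenib, by vein 6 times between day 10 and day 23. The Control group (replicates 3, 4 and 5) is labelled untreated, and the labels do not say whether it received an empty carrier. All tumours were taken on day 24. The study's title names antitumour immunity, and the comparison made here asks whether dendritic cell transcripts differ between TSDP and Control tumours. All animals carried the same cell line, and the replicates are known as separate samples from their titles alone, so p-values measure only the spread between these libraries.

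Conventional dendritic cells fall into a type 1 subset (cDC1), which takes up material from dying cells and presents it to CD8 T cells, and a type 2 subset (cDC2), which mainly primes CD4 T cells. Plasmacytoid dendritic cells (pDC) are a separate lineage known for type I interferon production. In mouse, cDC1 development requires the transcription factors IRF8 and BATF3, and after taking up antigen conventional dendritic cells mature and move to lymph nodes. Several of the 10 genes are not restricted to these cells. Irf8 and Itgax are also expressed by macrophages, Irf8 and Wdfy4 by B cells, Zbtb46 by endothelium, and Fscn1 by fibroblasts and many tumour cells. In tissue RNA, fewer cells of a type and less RNA per cell cannot be told apart.

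The 10 genes had higher mean levels in TSDP than in Control tumours, and none passed the test. Of 17423 genes tested, 0 were called higher and 0 lower in TSDP by edgeR's quasi-likelihood test at a Benjamini-Hochberg adjusted p under 0.05 (0% in each direction). The median log2 fold change (TSDP over Control) was 0.63 over the 10 genes and -0.02 over all genes tested, with a positive value for 10 of the 10 and for 47.3% of all genes. At an unadjusted p under 0.05 edgeR held 1 of the 10, Cd209a, where 8.6% of all genes were higher and 4.75% lower at that level. DESeq2 and limma-voom each held 3 of the 10 at that level (Xcr1, Cd209a and Siglech). DESeq2 had 5.8% higher and 2.51% lower among 33213 genes, which include genes with too few reads for edgeR's filter. For limma-voom it was 10.6% higher and 4.61% lower among 17423 genes, so the 2 backgrounds are unlike. Both tools held 0 of the 10 after adjustment. There DESeq2 called 2.98% higher and 0.397% lower among 18366 genes, and limma-voom called 0 genes. The 3 TSDP values lay above all 3 Control values for 4 of the 10 (Xcr1, Irf8, Cd209a and Siglech), against 13% of all genes tested. They lay below all Control values for 0 of the 10, against 8.76% of all genes. Without Control 4 the first count was 8 of the 10 (22.9% of all genes), without TSDP 5 it was 7 (20.9%), and without Control 3 it was the same 4 genes (15.7%). Each of the 10 had a Pearson r of 0.860 to 0.992 with their own mean standardised log2 CPM over the libraries. The genes moved together, so these counts do not stand for 10 separate observations.

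The libraries had total counts between 32130808 and 38953397, and Control 3 stood apart from the rest. It had the lowest level of the 6 libraries for 9 of the 10 genes and the second lowest, after Control 5, for Wdfy4. Over all genes tested Control 3 was lowest for 26.6%. Without Control 3 the median log2 fold change of the 10 genes was 0.33. The 12 hepatocyte marker genes summed to 31062, 59746 and 19883 CPM (counts per 1000000 reads) in TSDP 1, 2 and 5, and to 109, 21694 and 3640 CPM in Control 3, 4 and 5. The 5 epithelial tumour markers (Krt8, Krt18, Epcam, Afp and Gpc3) summed to between 1101 and 1355 CPM in TSDP and between 943 and 1348 CPM in Control, with none at 0 in any library. Erythroid markers summed to 649 CPM in Control 3, against 50.5 and 15.1 CPM in Control 4 and 5 and 33.4 to 52.6 CPM in TSDP. Monocyte markers summed to 1042 CPM in Control 3, against 600 and 493 CPM in Control 4 and 5 and 463 to 530 CPM in TSDP. Control 3 thus differed in tissue make-up beyond the 10 genes.

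The promoters shown here belong to Cd209a and Siglech, the genes with the largest fold changes among the 10, and to Zbtb46 and Itgax, the only ones whose window held a match to the motifs searched. Each window runs from 250 bases before to 50 bases after a start listed in RefSeq on GRCm38.p6, printed 5′ to 3′ along the gene's strand. The Zbtb46 window lies inside the gene span given below, far from its 5′ end at 181459426, so its match is not at that end. The windows of Batf3 and Wdfy4 and the second Irf8 window also lie inside their gene spans. Capitals mark the AP-1 letters TGANTCA, the kind of site that BATF3 binds with JUN proteins.
Cd209a (chr8:3748935-3749234, minus strand): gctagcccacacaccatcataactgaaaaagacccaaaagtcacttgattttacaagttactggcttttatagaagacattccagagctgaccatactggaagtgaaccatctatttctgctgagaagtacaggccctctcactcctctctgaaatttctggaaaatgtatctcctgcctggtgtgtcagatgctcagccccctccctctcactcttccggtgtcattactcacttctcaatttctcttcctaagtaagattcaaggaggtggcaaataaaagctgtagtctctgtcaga
Siglech (chr7:55767934-55768233, plus strand): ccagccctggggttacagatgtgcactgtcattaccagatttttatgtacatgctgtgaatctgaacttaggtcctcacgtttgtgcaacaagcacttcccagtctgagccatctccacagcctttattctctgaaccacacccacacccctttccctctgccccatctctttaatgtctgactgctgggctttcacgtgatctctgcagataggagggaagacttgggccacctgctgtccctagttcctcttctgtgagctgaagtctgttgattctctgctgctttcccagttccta
Zbtb46 (chr2:181424339-181424638, minus strand): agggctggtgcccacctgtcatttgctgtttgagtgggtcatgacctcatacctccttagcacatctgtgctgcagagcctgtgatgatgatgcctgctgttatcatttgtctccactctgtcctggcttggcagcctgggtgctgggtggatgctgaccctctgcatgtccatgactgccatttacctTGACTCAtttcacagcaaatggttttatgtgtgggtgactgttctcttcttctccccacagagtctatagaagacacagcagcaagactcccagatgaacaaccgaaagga
Itgax (chr7:128129300-128129599, plus strand): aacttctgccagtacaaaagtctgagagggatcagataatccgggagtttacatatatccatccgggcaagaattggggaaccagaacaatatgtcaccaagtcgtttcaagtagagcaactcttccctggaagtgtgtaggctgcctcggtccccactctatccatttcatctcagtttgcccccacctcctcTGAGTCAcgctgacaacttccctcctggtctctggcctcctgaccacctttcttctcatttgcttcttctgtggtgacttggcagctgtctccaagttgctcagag
Windows were found for 10 of the 10 genes, 11 in all because Irf8 had 2. On both strands, TGANTCA was present in the windows of 2 genes, while GAGGAAGT (a PU.1 core) was present in those of 0. Among 32851 promoter windows of the same length TGANTCA occurred in 7.81% and GAGGAAGT in 3.2%. A match describes these letters only, and the lack of one says nothing of the factor.

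In GENCODE M21 (GRCm38), whose 55450 gene identifiers are all in the count table, the 10 genes lie on 8 chromosomes. Xcr1 (ENSMUSG00000060509) lies on chromosome 9 at 123852315 to 123862029 and Clec9a (ENSMUSG00000046080) on chromosome 6 at 129408862 to 129424763. Cd209a (ENSMUSG00000031494) lies on chromosome 8 at 3743397 to 3748984 and Siglech (ENSMUSG00000051504) on chromosome 7 at 55768178 to 55778925. Batf3 (ENSMUSG00000026630) lies on chromosome 1 at 191097847 to 191108945, Irf8 (ENSMUSG00000041515) on chromosome 8 at 120736358 to 120756694 and Wdfy4 (ENSMUSG00000051506) on chromosome 14 at 32959547 to 33185508. Zbtb46 (ENSMUSG00000027583) lies on chromosome 2 at 181387762 to 181459426 and Fscn1 (ENSMUSG00000029581) on chromosome 5 at 142960343 to 142973185. Itgax (ENSMUSG00000030789) lies on chromosome 7 at 128129547 to 128150657. Exons of 9 of the 10 overlap no other gene's exons. Clec9a shares 184 exonic bases on the same strand with Clec1b, a lectin gene of platelets and liver endothelium, so reads there cannot be assigned with certainty. Clec1b itself had 6.22, 13.9 and 4.91 CPM in TSDP 1, 2 and 5, against 0.556, 4.02 and 4.10 CPM in Control 3, 4 and 5.

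**Figure D1:**
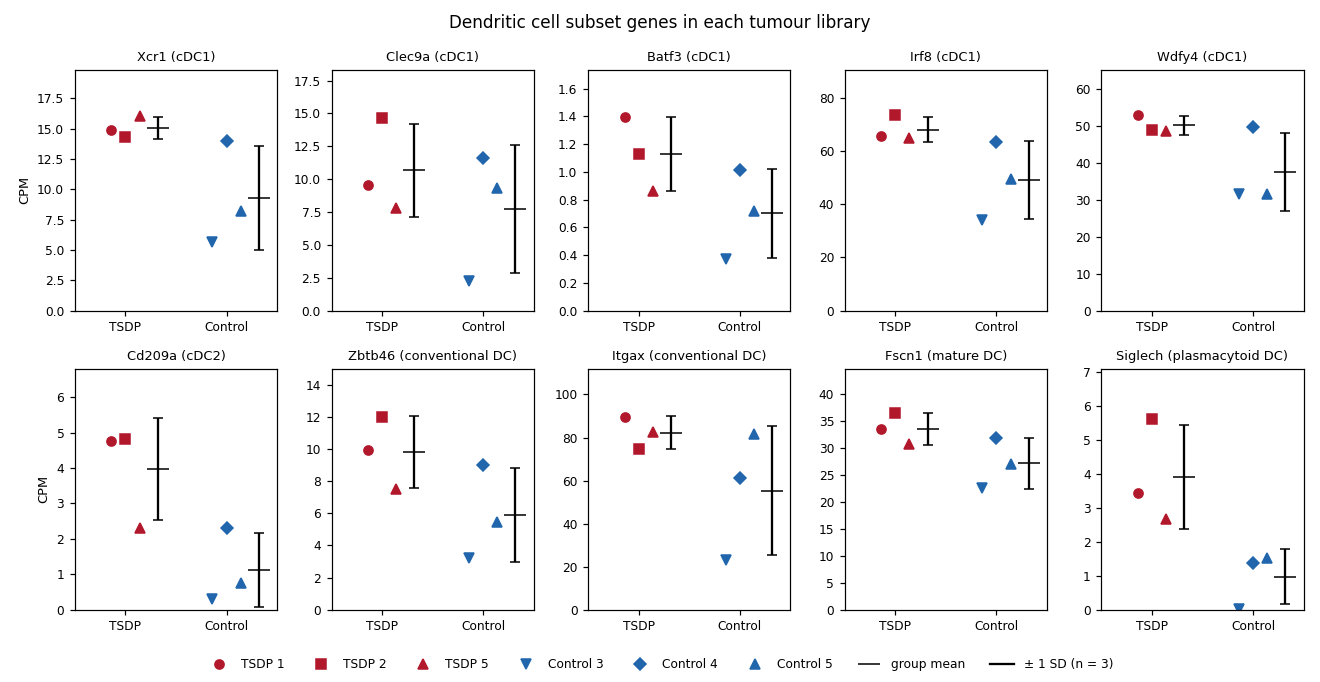
CPM of each gene in each library, with 1 panel per gene, a linear axis from 0, 1 symbol per library, and the group mean with ± 1 SD (n = 3) beside the points. The TSDP points lie above all Control points for Xcr1, Irf8, Cd209a and Siglech, and Control 3 is the lowest point in every panel except Wdfy4.

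Xcr1 encodes the chemokine receptor that brings cDC1 to XCL1-secreting lymphocytes, and is largely restricted to cDC1. It had 14.9, 14.3 and 16.0 CPM in TSDP 1, 2 and 5 (543, 495 and 574 reads), against 5.62, 14.0 and 8.23 CPM in Control 3, 4 and 5 (182, 456 and 331 reads). The groups did not overlap, but Control 4 lay just under the lowest TSDP library. The means were 15.1 CPM ± 0.872 in TSDP and 9.28 CPM ± 4.28 in Control (SD, n = 3 each), and the log2 fold change was 0.70 ± 0.33 (SE, adjusted p = 0.412 by edgeR). Without Control 3 it was 0.43 ± 0.25 (SE), and without Control 4 it was 1.12 ± 0.22 (SE, adjusted p = 0.183 by edgeR).

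Clec9a encodes the receptor with which cDC1 recognise exposed actin on dead cells. It had 9.56, 14.7 and 7.81 CPM in TSDP 1, 2 and 5, against 2.26, 11.6 and 9.32 CPM in Control 3, 4 and 5. The groups overlapped, with TSDP 2 highest and Control 3 alone far below the others. Its log2 fold change was 0.47 ± 0.58 (SE, adjusted p = 0.74 by edgeR). It was 0.016 ± 0.31 (SE) without Control 3, 0.15 ± 0.67 (SE) without TSDP 2 and 0.88 ± 0.63 (SE) without Control 4. Clec9a and Xcr1 did not keep 1 ratio across the libraries. There were 0.643, 1.02 and 0.488 Clec9a reads per Xcr1 read in TSDP 1, 2 and 5, against 0.401, 0.829 and 1.13 in Control 3, 4 and 5.

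Batf3 and Irf8 encode the transcription factors that establish and maintain cDC1. Batf3 was counted with 51, 39 and 31 reads in TSDP 1, 2 and 5, against 12, 33 and 29 reads in Control 3, 4 and 5. Its level was 1.13 CPM ± 0.266 in TSDP and 0.701 CPM ± 0.321 in Control (SD, n = 3 each), and Control 4 lay above TSDP 5. The log2 fold change was 0.68 ± 0.42 (SE, adjusted p = 0.502 by edgeR), or 0.37 ± 0.38 (SE) without Control 3 and 1.03 ± 0.44 (SE) without Control 4. Irf8 had 65.6, 73.6 and 65.1 CPM in TSDP 1, 2 and 5, against 34.1, 63.5 and 49.7 CPM in Control 3, 4 and 5. The groups of Irf8 did not overlap, although Control 4 lay close to TSDP 5. Its log2 fold change was 0.47 ± 0.23 (SE, adjusted p = 0.417 by edgeR), or 0.25 ± 0.15 (SE) without Control 3.

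Wdfy4 encodes a BEACH domain protein that cDC1 need for cross-presentation of cell-associated antigen. It had 53.0, 48.8 and 48.5 CPM in TSDP 1, 2 and 5, against 31.6, 49.8 and 31.4 CPM in Control 3, 4 and 5. Control 4 lay within the TSDP range and the other Control libraries well below it. The log2 fold change was 0.41 ± 0.20 (SE, adjusted p = 0.42 by edgeR). It was 0.29 ± 0.21 (SE) without Control 3, 0.28 ± 0.23 (SE) without Control 5 and 0.67 ± 0.11 (SE, adjusted p = 0.183 by edgeR) without Control 4.

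Cd209a encodes DC-SIGN, a C-type lectin found on cDC2 and on monocyte-derived dendritic cells. It was counted with 174, 167 and 83 reads in TSDP 1, 2 and 5, against 10, 75 and 30 reads in Control 3, 4 and 5. As CPM these were 4.77, 4.83 and 2.32 in TSDP, against 0.309, 2.30 and 0.746 in Control. The groups did not overlap, but TSDP 5 and Control 4 were almost equal. The means of 3.97 CPM ± 1.43 in TSDP and 1.12 CPM ± 1.05 in Control (SD, n = 3 each) corresponded to 1.83 ± 0.72 (SE, adjusted p = 0.371 by edgeR), on the log2 scale, or 3.55-fold. It was 1.37 ± 0.60 (SE) without Control 3 and 2.89 ± 0.57 (SE, adjusted p = 0.183 by edgeR) without Control 4.

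Zbtb46 encodes a transcription factor of the conventional dendritic cell lineage, and Itgax encodes CD11c, the integrin chain by which dendritic cells are often sorted. Zbtb46 had 9.91, 12.0 and 7.53 CPM in TSDP 1, 2 and 5, against 3.24, 9.02 and 5.44 CPM in Control 3, 4 and 5. Control 4 lay above TSDP 5, and the log2 fold change was 0.73 ± 0.39 (SE, adjusted p = 0.456 by edgeR). It was 0.43 ± 0.32 (SE) without Control 3 and 1.17 ± 0.33 (SE) without Control 4. Itgax had 89.7, 74.5 and 82.6 CPM in TSDP 1, 2 and 5, against 23.0, 61.1 and 81.9 CPM in Control 3, 4 and 5. Control 5 lay within the TSDP range, and Control 3 lay far below the other libraries. Its log2 fold change was 0.57 ± 0.43 (SE, adjusted p = 0.571 by edgeR), or 0.19 ± 0.17 (SE) without Control 3 and 0.94 ± 0.44 (SE) without Control 5. The 6 vascular endothelial markers (Pecam1, Cdh5, Kdr, Tie1, Emcn and Cldn5), cells that also express Zbtb46, all had positive log2 fold changes. They summed to between 223 and 338 CPM in TSDP and between 149 and 227 CPM in Control, with none at 0. The 6 markers of liver sinusoidal endothelium were also positive in 6 of 6, with a median log2 fold change of 1.84. Their sums did not overlap, at 366, 609 and 350 CPM in TSDP 1, 2 and 5, against 280, 309 and 214 CPM in Control 3, 4 and 5, with none at 0. The part of endothelial cells in the Zbtb46 values was not tested.

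Fscn1 encodes fascin, an actin-bundling protein that dendritic cells switch on when they mature. It had 33.4, 36.5 and 30.6 CPM in TSDP 1, 2 and 5, against 22.5, 31.9 and 26.9 CPM in Control 3, 4 and 5. Control 4 again fell within the TSDP range. With a log2 fold change of 0.31 ± 0.16 (SE, adjusted p = 0.437 by edgeR) Fscn1 had the smallest difference of the 10 genes, and it was 0.17 ± 0.15 (SE) without Control 3. The fibroblast markers, whose cells can also express fascin, summed to between 4229 and 8111 CPM in TSDP and between 3032 and 6200 CPM in Control, with 7 of 7 positive and none at 0. Their part in the Fscn1 values was not tested.

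Siglech encodes a sialic acid-binding lectin that marks mouse pDC and some tissue macrophages. It was counted with 126, 195 and 96 reads in TSDP 1, 2 and 5, against 1, 45 and 61 reads in Control 3, 4 and 5. The single read in Control 3 has an exact 95% Poisson interval of 0.0253 to 5.57 reads, which covers counting error only. As CPM the levels were 3.45, 5.63 and 2.68 in TSDP, against 0.0309, 1.38 and 1.52 in Control. All 3 TSDP libraries stood clear of the Control libraries. The log2 fold change was 1.99 ± 0.96 (SE, adjusted p = 0.421 by edgeR), the largest of the 10 genes. Without Control 3, whose value was the most extreme, it was 1.42 ± 0.41 (SE, adjusted p = 0.543 by edgeR). Markers of microglia-like macrophages, another source of Siglech (P2ry12, Sall1 and Tmem119), summed to between 50.8 and 57.1 CPM in TSDP and between 54.4 and 63.7 CPM in Control, with 1 of 3 positive and none at 0. Whether these markers follow Siglech-expressing macrophages in these tumours was not tested, nor was the part of macrophages in the Siglech values.

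Per kilobase of exon the order of the genes was similar in both groups, apart from Siglech. In TSDP, Itgax stood highest at 15.5 to 18.7 CPM per kilobase. Fscn1 followed at 10.2 to 12.1 and Irf8 at 9.23 to 10.4, and these neighbours overlapped. Wdfy4 lay at 4.60 to 5.02, separate from the genes on either side. Xcr1 at 3.21 to 3.60 and Clec9a at 2.37 to 4.45 overlapped, and Clec9a also overlapped Cd209a at 1.46 to 3.05. The lowest were Siglech at 0.792 to 1.67, Zbtb46 at 0.885 to 1.41 and Batf3 at 0.542 to 0.875, where Batf3 overlapped Siglech but not Zbtb46. In Control the ranges, as differences, were wider for 8 of the 10 genes and narrower for Cd209a and Siglech. As ratios of highest to lowest, Cd209a at 0.195 to 1.45 and Siglech at 0.00913 to 0.448 were also wider in Control. There Itgax at 4.78 to 17.0, Fscn1 at 7.46 to 10.6 and Irf8 at 4.83 to 9.0 all overlapped. Siglech had the lowest mean there, 0.288 CPM per kilobase, under Batf3 at 0.439, whereas in TSDP Siglech averaged 1.16 and Batf3 0.707.

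**Figure D2:**
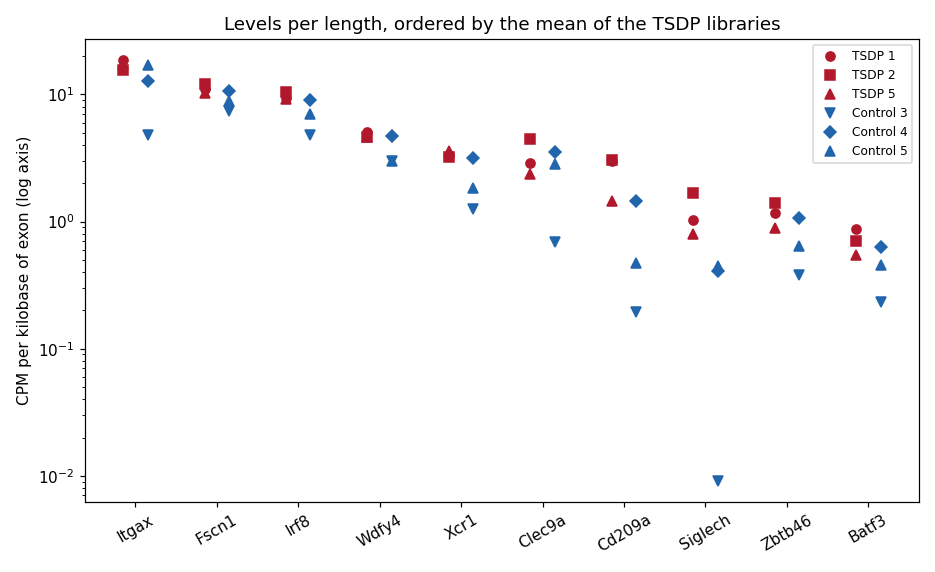
CPM per kilobase of exon in each library on a log axis, with the genes ordered by their TSDP mean and TSDP points left of Control points. Itgax, Fscn1 and Irf8 lie near the top, and the Siglech value of Control 3, from 1 read, lies at 0.00913.

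Leukocyte RNA as a whole was also more abundant in TSDP on average. The 10 leukocyte markers (Ptprc, Coro1a, Laptm5, Cd53, Cd52, Arhgdib, Cytip, Fermt3, Rac2 and Was) had 10 of 10 positive log2 fold changes with a median of 0.34. They summed to 693, 767 and 629 CPM in TSDP 1, 2 and 5, against 517, 677 and 492 CPM in Control 3, 4 and 5, and none was at 0. Ptprc, which encodes the leukocyte surface protein CD45, averaged 137 CPM ± 13.9 in TSDP and 109 CPM ± 17.4 in Control (SD, n = 3 each). Its log2 fold change was 0.33 ± 0.15 (SE, adjusted p = 0.408 by edgeR).

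Set against Ptprc, 2 of the 10 genes, Cd209a and Siglech, still had TSDP values above all Control values, where 6.86% of all genes tested did. Without Control 3 it was the same 2 genes (7.62% of all genes), and without Control 4 it was 4, with Xcr1 and Zbtb46 (10.6%). Cd209a had 36.3, 31.6 and 18.3 reads per 1000 Ptprc reads in TSDP 1, 2 and 5, against 3.05, 17.9 and 7.72 in Control 3, 4 and 5. TSDP 5 and Control 4 again lay next to each other. For Siglech the numbers were 26.3, 36.9 and 21.2 in TSDP, against 0.305, 10.7 and 15.7 in Control. The other 8 genes overlapped on this scale. Xcr1 averaged 111 ± 16.6 in TSDP and 83.1 ± 26.6 in Control (SD, n = 3 each), and Irf8 499 ± 16.5 in TSDP and 448 ± 97.3 in Control (SD, n = 3 each). Fscn1 was nearly level, with 245 ± 8.17 in TSDP and 249 ± 28.6 in Control (SD, n = 3 each). These ratios are given as descriptions with no test.

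**Figure D3:**
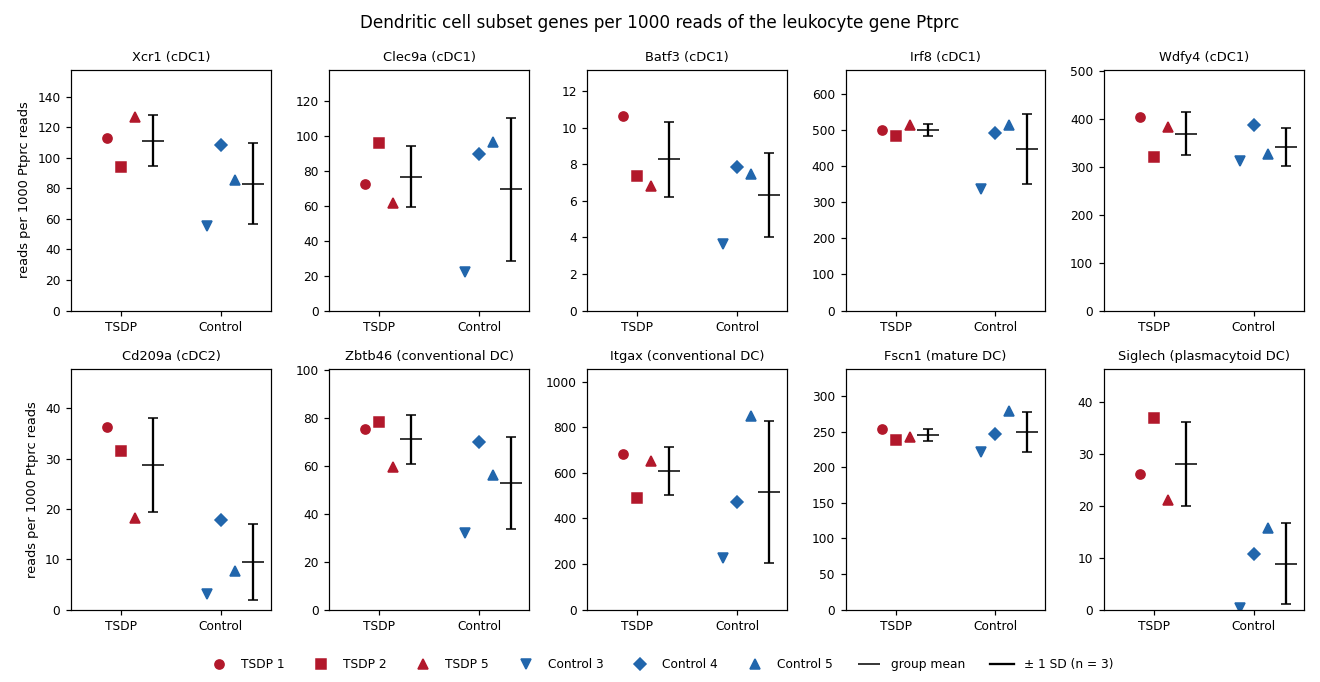
Reads of each gene per 1000 reads of the leukocyte gene Ptprc in each library, with the group mean and ± 1 SD (n = 3). Cd209a and Siglech keep their groups apart, while the TSDP and Control points of the other 8 genes mix.

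Between subsets, Cd209a was also higher relative to Clec9a. There were 0.499, 0.329 and 0.296 Cd209a reads per Clec9a read in TSDP 1, 2 and 5, against 0.137, 0.198 and 0.0800 in Control 3, 4 and 5, without overlap. Relative to Xcr1 the groups overlapped, at 0.320, 0.337 and 0.145 in TSDP, against 0.0549, 0.164 and 0.0906 in Control. Siglech reads per Itgax read were 0.0385, 0.0756 and 0.0324 in TSDP, against 0.00135, 0.0226 and 0.0185 in Control, without overlap. The other pairs formed, Clec9a per Xcr1, Fscn1 per Zbtb46 and Batf3 per Irf8, overlapped. Cd209a and Siglech already had the largest fold changes, and how often other gene pairs lack overlap was not computed. All pairs were picked after the values had been seen, and the differences were not tested.

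The log2 fold changes were lower when the hepatocyte or leukocyte level of each library entered the fit. With the leukocyte score as a covariate the median of the 10 genes was 0.071. In that fit Cd209a had a log2 fold change of 0.54 ± 0.53 and Siglech 1.28 ± 1.43 (SE). Dendritic cells are leukocytes, so that score can also carry part of their own signal. With the hepatocyte score the median was 0.013, with Cd209a at 0.57 ± 0.47 (SE). The Siglech value with that score, 0.015 with an SE of 7.64, is too imprecise to read. Clec9a turned negative in both, at -0.29 ± 0.74 (SE) with the leukocyte score and -0.74 with the hepatocyte score (adjusted p = 0.997 and 0.909 by edgeR). With the hepatocyte score its SE was 0.29 and its unadjusted p 0.040 by edgeR. In that fit 925 of 17423 genes, in either direction, had an unadjusted p under 0.05. Each hepatocyte score in TSDP (9.36 to 10.8, mean log2 CPM) lay above each in Control (1.60 to 9.06), with Control 4 closest to TSDP 5. Hepatocyte level and treatment can therefore not be told apart in that fit, and its values are not treatment effects freed of tissue make-up.

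**Figure D4:**
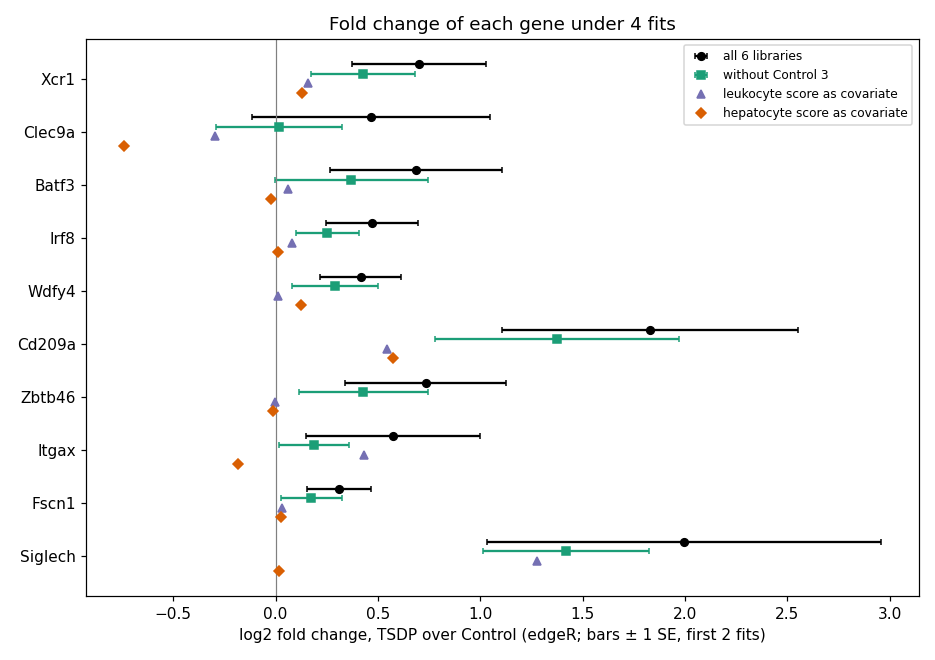
Log2 fold change (TSDP over Control) of each gene in 4 edgeR fits, with ± 1 SE for the fit to all 6 libraries and the fit without Control 3. Every gene lies right of 0 in those fits, and with a covariate each value is lower than in the fit to all 6 libraries, Clec9a reaching -0.74 with the hepatocyte score.

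Other dendritic cell genes, together with growth factors and recruiting chemokines, passed the test in 0 cases in either direction by edgeR. Their lists were chosen with earlier results of these data known. Of the 55 tested, 6 (10.9%) were higher and 0 lower at an unadjusted p under 0.05, near the 8.6% of all genes that were higher at that level, and DESeq2 called 0 after adjustment. Without overlap between the groups, 12 of the 55 were higher in TSDP (21.8%, against 13% of all genes) and 4 were lower (7.27%, against 8.76%). The growth factors and chemokines were 10 of the 55, and gave 1 of the 6, 3 of the 12 and 2 of the 4. Of 10 other cDC1 genes tested, 7 had positive and 3 negative log2 fold changes, with a median of 0.39, or 0.14 without Control 3. Those with the smallest p were Id2, a factor needed for dendritic cell development, at 0.36 ± 0.16 (SE), Gcsam at 0.63 ± 0.30 (SE) and Itgae, the CD103 integrin chain, at 0.55 ± 0.30 (SE). Itgae had 20.8, 18.7 and 20.3 CPM in TSDP 1, 2 and 5, against 7.85, 18.1 and 14.8 CPM in Control 3, 4 and 5, without overlap. The 3 negative genes were Tlr3 at -0.097 ± 0.11, Cadm1 at -0.21 ± 0.22 and Rab7b at -0.063 ± 0.18 (SE). Other cells of the tumour can also express genes of this list, positive or negative, and their part was not tested.

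Of 7 tested cDC2 genes (Clec4a4 had too few reads), 6 were positive and 1 negative, with a median of 0.36. Irf4, the transcription factor of cDC2, had 9.15, 7.46 and 5.83 CPM in TSDP 1, 2 and 5, against 1.70, 4.75 and 4.70 CPM in Control 3, 4 and 5, without overlap. Its log2 fold change was 1.01 ± 0.42 (SE, adjusted p = 0.379 by edgeR). Mgl2, the CD301b lectin of cDC2 and some macrophages, stood at 0.89 ± 0.34 (SE), while Klf4 stood at -0.38 ± 0.18 (SE). Of the 7 shared or progenitor genes, 5 were positive and 2 negative. Flt3, the receptor for the growth factor that drives dendritic cell production, averaged 8.36 CPM in TSDP and 5.31 CPM in Control, at 0.66 ± 0.37 (SE). Dpp4, the peptidase CD26, stood at 2.16 ± 0.86 (SE) and is also expressed by hepatocytes, and Batf at 0.64 ± 0.33 (SE).

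Among genes of mature, migrating dendritic cells, 8 of 9 tested were positive and 1 was negative, with a median of 0.53, or 0.24 without Control 3. Ccr7, the receptor that guides them to lymph nodes, had 5.26, 5.14 and 4.13 CPM in TSDP 1, 2 and 5, against 1.05, 3.01 and 4.67 CPM in Control 3, 4 and 5, with overlap. Ccl17 and Ccl22, chemokines that attract CCR4-bearing T cells, stood at 1.73 ± 0.72 and 1.06 ± 0.65 (SE). For Ccl17 the highest library, TSDP 1, had 10.1 CPM and the next, TSDP 5, 3.57 CPM. Socs2 stood at 0.37 ± 0.19 (SE). Ccl19, Il4i1 and Lamp3 had too few reads to be tested.

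The pDC list had no single direction. Of 12 tested, 6 were positive and 6 negative, with a median of 0.061, or 0.094 without Control 3. The 13 genes summed to 324, 341 and 349 CPM in TSDP 1, 2 and 5, against 383, 540 and 397 CPM in Control 3, 4 and 5, so the sum was lower in TSDP without overlap. Without Klk1, which had 152 CPM in Control 4 alone, the sum of Control 4 was 388 CPM and the groups still did not overlap. Much of each sum came from Tcf4 and Runx2, with means of 109 and 89.1 CPM in TSDP and 127 and 118 CPM in Control. Sums without Tcf4 and Runx2 were not made, so the sums do not stand for the list as a whole. Of the 12 tested, 3 were higher and 2 lower in TSDP without overlap (13% and 8.76% of all genes). Ccr9, a gut-homing chemokine receptor on pDC, had 1.64, 2.14 and 1.59 CPM in TSDP 1, 2 and 5, against 0.278, 0.797 and 0.969 CPM in Control 3, 4 and 5. Pacsin1, an adaptor enriched in pDC, had 1.15, 1.44 and 1.00 CPM in TSDP, against 0.247, 0.644 and 0.771 CPM in Control. Spib, a transcription factor of pDC and B cells, had 0.849, 2.25 and 1.31 CPM in TSDP, against 0.0309, 0.399 and 0.721 CPM in Control. These 3 low genes were the ones higher without overlap, and their log2 fold changes were 1.38 ± 0.47, 1.10 ± 0.44 and 1.91 ± 0.84 (SE; adjusted p = 0.334, 0.371 and 0.394 by edgeR). Tcf4, the factor that specifies pDC but is widely expressed, averaged 109 CPM in TSDP and 127 CPM in Control, without overlap, at -0.22 ± 0.12 (SE). Runx2, a transcription factor also known from bone, had 100.2, 65.3 and 102 CPM in TSDP 1, 2 and 5, against 133, 103 and 118 CPM in Control 3, 4 and 5. It was the other gene lower without overlap, at -0.40 ± 0.20 (SE, adjusted p = 0.435 by edgeR). The 7 B cell markers were positive in 7 of 7 and summed to between 3.37 and 8.96 CPM in TSDP and between 1.39 and 2.48 CPM in Control, with none at 0. Their part in the Spib values was not tested.

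For growth factors and recruiting chemokines, 6 of 10 tested were positive and 4 negative. Xcl1, the ligand of XCR1 made by NK and CD8 T cells, had 0.466, 0.318 and 0.502 CPM in TSDP 1, 2 and 5, against 0.0927, 0.215 and 0.174 CPM in Control 3, 4 and 5. These few reads did not overlap between groups and gave a log2 fold change of 1.39 ± 0.40 (SE, adjusted p = 0.329 by edgeR). Cxcl9, an interferon gamma-induced chemokine made by dendritic cells and macrophages, stood at 1.05 ± 0.47 (SE), and Ccl3, a chemokine of activated myeloid cells, at -0.45 ± 0.21 (SE). Flt3l, the ligand of FLT3, was close to level, with 6.26 CPM in TSDP and 5.50 CPM in Control, at 0.19 ± 0.28 (SE). The T cell markers summed to between 87.8 and 96.1 CPM in TSDP and between 27.6 and 81.3 CPM in Control, with 8 of 8 positive and none at 0. NK cell markers overlapped, between 24.2 and 38.7 CPM in TSDP and between 9.58 and 40.6 CPM in Control, with 3 of 4 tested positive and Klra8 at 0 in all libraries except TSDP 1. The part of these cells in the Xcl1 values was not tested.

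**Figure D5:**
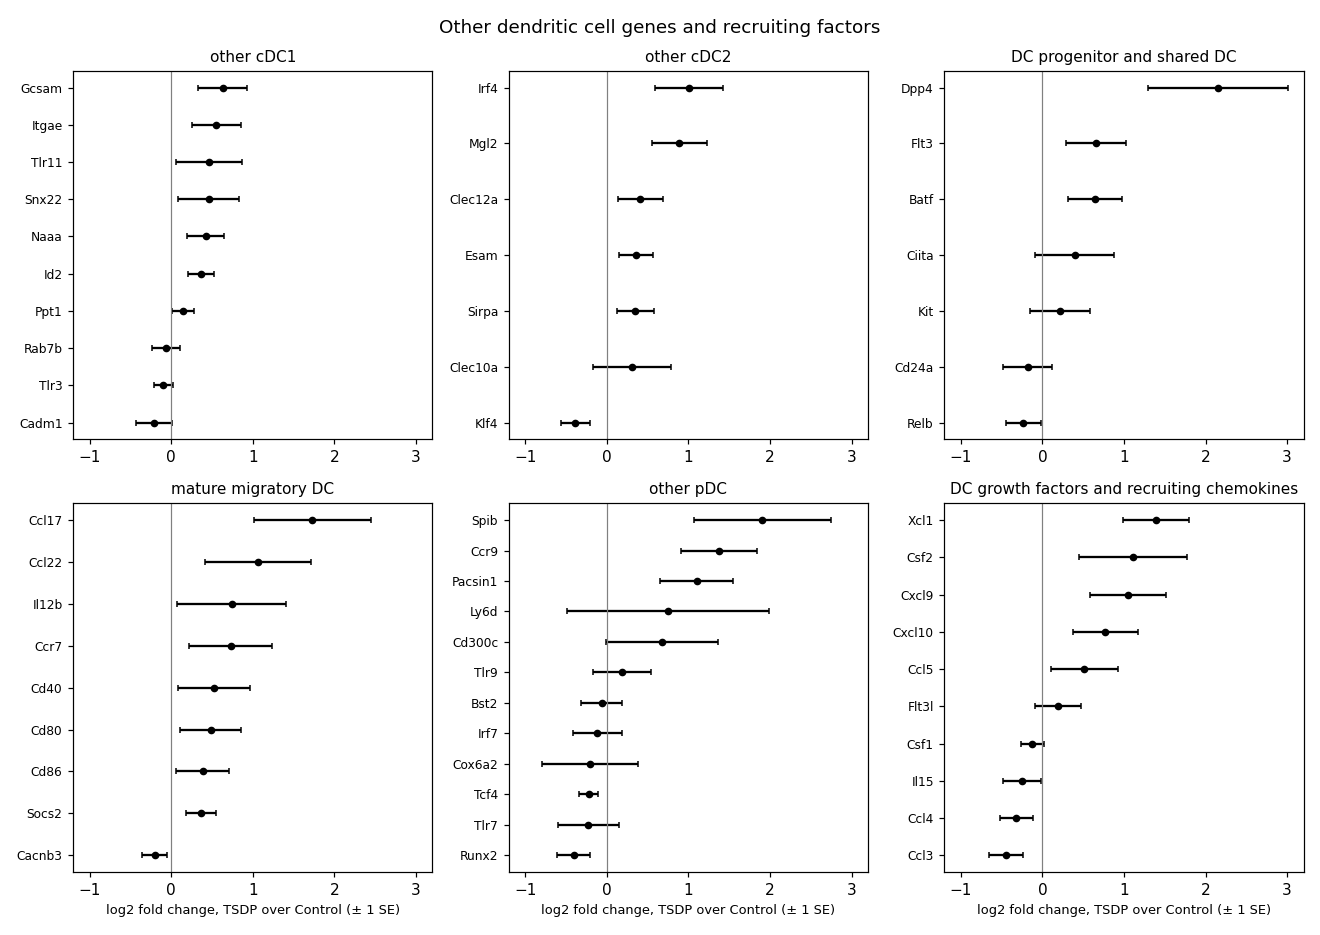
Log2 fold change (TSDP over Control) with ± 1 SE of each tested gene in the 6 lists of other dendritic cell genes and factors. Most cDC1, cDC2 and mature dendritic cell genes lie right of 0, while the pDC genes divide between 6 on each side.

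Myeloid markers that overlap with dendritic cells were mostly positive for macrophages and Kupffer cells and evenly split for monocytes. The 10 macrophage markers, cells that also express Itgax and Irf8, summed to between 2121 and 2853 CPM in TSDP and between 1482 and 2369 CPM in Control, with 8 of 10 positive and none at 0. The 6 Kupffer cell markers summed to between 124 and 368 CPM in TSDP and between 43.7 and 125 CPM in Control, with 5 of 6 positive. Monocyte markers summed to between 463 and 530 CPM in TSDP and between 493 and 1042 CPM in Control, with 3 of 6 positive. No Kupffer cell or monocyte marker was at 0. The median log2 fold change was 0.17 for macrophage, 1.52 for Kupffer cell and 0.0062 for monocyte markers, against 0.63 for the 10 dendritic cell genes. Without Control 3 the Kupffer cell median was 1.14. The part of these myeloid cells in the values of Itgax, Irf8 and Cd209a was not tested.

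The genes whose pattern over the 6 libraries was most like the average of the 10 were Sowahb, Foxa3, Them7, Aass and Cdhr5. Foxa3 encodes a hepatocyte transcription factor and Aass an enzyme of lysine breakdown in liver. Their Pearson r with the mean standardised log2 CPM of the 10 lay between 0.999 and 1.000 (Spearman rho 0.943 to 1), and between 0.970 and 0.998 without Control 3 and Control 5. Foxa3 had 20.2, 28.3 and 9.24 CPM in TSDP 1, 2 and 5, against 0.0927, 10.8 and 2.34 CPM in Control 3, 4 and 5. An r over 0.95 was reached by 757 of 14150 genes (5.35%), and the likeness over 6 libraries is given as a description.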

How the data were processed

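RNA from 6 HCA-1 tumours was measured by sequencing, 3 TSDP and 3 Control, grouped by sample title. The submitters' processing notes name featureCounts 2.0.0, HISAT2 2.1.0, Trimmomatic 0.38 and CASAVA. The genome build, the annotation and whether strand was used were not given in the sources used here. The deposited read counts are whole numbers per Ensembl gene, not normalized. The other deposited table, a normalized signal, equals the counts over 1 constant per library (largest relative departure 5.3e-15). It supplied the symbols alone.

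The test was edgeR 4.0.16 under R 4.3.3 (TMM, filterByExpr with minimum count 10, legacy quasi-likelihood, intercept and group), with Benjamini-Hochberg adjustment over 17423 genes at 0.05. SE is the absolute log2 fold change over the root of F, and CPM uses TMM-scaled library sizes. DESeq2 1.42.0, limma 3.58.1 (voom), other scaling and filters, 2 covariates (mean log2 CPM of hepatocyte or leukocyte markers, prior count 2) and leaving out each library were alternatives. The steps were tested on simulated counts. Exon lengths came from GENCODE M21.

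The genes, lists and rules were chosen with earlier results of these data known. Named from each dendritic cell list were the 3 tested genes with the smallest p, together with Flt3, Flt3l, Ccr7, Irf4, Tcf4 and Xcl1; a few others were named after their values were seen. Intervals cover counting error only.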

Additional observations from a re-analysis of the deposited data

How the results depend on the processing

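No member passed the threshold under any alternative, and the adjusted p of each stayed above it. Of 149 values of single members under 15 alternatives, 143 kept their direction and 6 reversed, all with a covariate; the cause was not tested. With the hepatocyte score these were Clec9a at -0.74, Batf3 at -0.021, Zbtb46 at -0.014 and Itgax at -0.18, and with the leukocyte score Clec9a at -0.29 and Zbtb46 at -0.0045 (log2 fold change, TSDP over Control). Siglech kept its sign with the hepatocyte score but was too imprecise to read there (SE 7.64). Other values that kept their sign were near 0, such as Irf8 at 0.011 and Fscn1 at 0.026 with the hepatocyte score. With the leukocyte score Wdfy4 stood at 0.011 and Fscn1 at 0.031, and without Control 3 Clec9a stood at 0.016. The alternatives reuse the same libraries, so they are not separate evidence of direction. Over all genes the count past the threshold was 1 without the filter on low counts and 620 with DESeq2 (547 higher, 73 lower), against 0 in edgeR. Leaving out each library in turn gave 0 genes each time. The number of the 10 genes whose groups did not overlap ranged from 4 to 8 when a library was left out, a check added after the values were seen. It was 8 without Control 4 (22.9% of all genes) and 7 without TSDP 5 (20.9%), and 4 without Control 3 (15.7%). Per 1000 Ptprc reads it ranged from 2 to 4, with 4 without Control 4 (10.6% of all genes). Fewer libraries make a lack of overlap easier to reach. Upper-quartile scaling moved the median of all genes to -0.09. With a minimum count of 50 Batf3 was not tested. Depth limits Siglech, Cd209a and Batf3 most, at 1, 10 and 12 reads in Control 3. No paired analysis was possible because the groups share only replicate number 5.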

Other observations

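Klk1, a tissue kallikrein placed on the pDC list, stood out in a single library, a value noticed after the data were seen. It had 0.110, 0.231 and 0.0279 CPM in TSDP 1, 2 and 5, against 0.0309, 152 and 0.0746 CPM in Control 3, 4 and 5. With reads in essentially 1 library it did not pass the filter on low counts, and it alone placed the summed pDC list of Control 4 at 540 CPM, against 383 and 397 CPM in Control 3 and 5.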
